A study of Mus musculus with 12 samples.

Results

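Il12a, Il23a, Il27, Ebi3, Il10, Il19 and Il15 encode cytokines or cytokine subunits that dendritic cells use to direct T cells. They were chosen by name, with earlier results of these data known. Their probes were found by matching the RefSeq accession on each array probe to these symbols. Each of the 7 genes had 1 probe, and all 7 were among the 18403 genes that passed a filter on dim probes. Il23a, Il10 and Il19 passed it through their 6 h and 12 h arrays alone, so a difference from 0 h was built into their choice by that filter. The cells were murine bone marrow-derived dendritic cells, grown from the marrow of female mice aged 6 to 8 weeks in 20 ng/ml GM-CSF until harvest on day 7. They were cultured with nanoparticles of poly(γ-glutamic acid) (γ-PGA), a biodegradable polymer, at 300 µg/ml. The groups were 0 h, the start of exposure, and 6, 12 and 24 h with the particles, each with 3 samples from experiments that the series describes as independent. Every group thus shared the GM-CSF culture, and since no particle-free culture of 6, 12 or 24 h was included, exposure and culture time cannot be told apart. RNA came from whole cultures, in which fewer cells of a type and less RNA per cell cannot be told apart.

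Cytokines of the IL-12 family are pairs of subunits that are shared in several combinations. Il12a encodes p35, which forms IL-12 with the p40 subunit from Il12b and IL-35 with the product of Ebi3. Il23a encodes p19, which forms IL-23 with the same p40, and Il27 encodes p28, which forms IL-27 with the product of Ebi3. IL-12 favours T helper 1 cells and IL-23 sustains T helper 17 cells. Il10 encodes the main cytokine that restrains inflammation in myeloid cells, and Il19 encodes a member of the IL-10 family. Il15 encodes a cytokine that supports natural killer cells and memory CD8 T cells and is presented on its receptor chain Il15ra. Il12b had no matched probe and is not analysed here.

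The upstream sequences of 3 of the 7 genes, with 4 transcription starts in all, were in a RefSeq promoter table of the build GRCm38.p6. They are shown because Ebi3 and Il12a rose in both sources of values described below and Il19 in 1 of them. Capitals mark matches on either strand to a wide form of the NF-κB motif, GGG then 5 bases of any kind then CC, and each window of 250 bases ends at the base before the start.

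Ebi3, chr17:55952373-55952622, + strand: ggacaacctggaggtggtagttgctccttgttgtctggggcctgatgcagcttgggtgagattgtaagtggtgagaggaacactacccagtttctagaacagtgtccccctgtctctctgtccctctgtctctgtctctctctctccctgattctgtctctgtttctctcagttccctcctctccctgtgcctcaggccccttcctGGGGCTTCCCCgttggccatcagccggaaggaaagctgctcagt

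Il19, chr1:130940116-130940365, - strand: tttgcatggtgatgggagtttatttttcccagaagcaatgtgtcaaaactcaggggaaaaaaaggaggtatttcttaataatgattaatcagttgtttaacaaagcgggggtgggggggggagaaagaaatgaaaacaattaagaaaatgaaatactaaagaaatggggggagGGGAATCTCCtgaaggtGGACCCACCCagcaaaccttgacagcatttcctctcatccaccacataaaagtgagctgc

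Il12a, the second start, chr3:68691301-68691330, + strand, 123 to 94 bases before the start: ggtgggcggtGGGACGGTCCCgaatctcct

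In Ebi3 a pair of overlapping matches began 44 and 43 bases before the start, and each read as a match on both strands. In Il19 matches began 77 bases before the start in the gene's own sense and 60 bases before it on the opposite strand. At the second Il12a start overlapping matches began at 113 and 112 bases. This form stood in 46.0% of 32536 such windows of all genes, so the match is a common one. Il19 also held the interferon-response form, GAAA then 2 bases of any kind then GAAA, at 107 bases, which stood in 2.98% of windows, and the STAT form TTCNNNGAA, at 225 bases, which stood in 7.04%. The AP-1 form TGANTCA, present in 6.73% of windows, had no match in these 4 windows, and the first Il12a start had no match to any of the 4 forms. These matches describe letters in the windows.

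The deposited files held the signals of 12 Agilent 1-colour arrays and a table of processed values. The scanner values are given as the log2 of the processed signal over the 75th percentile of its array, so that 0 is the level of that percentile, and values of different probes are not compared. The table holds ratios, in which 1 is a probe's median over the 0 h samples. A change was called where limma's Benjamini-Hochberg adjusted p, taken over the whole table, was under 0.05 and the fold reached 2. In the scanner values the group mean labelled 24 h had a correlation across genes of 0.994 with the 0 h mean, 0.928 with the 6 h mean and 0.914 with the 12 h mean. Of 18403 genes, 0.837% were called at 24 h against 0 h in the scanner values and 26.3% in the value table, and the changes of the 2 sources correlated across genes at 0.73 at 6 h, 0.54 at 12 h and -0.07 at 24 h. Genes are not independent replicates, so these values describe likeness. Each source is therefore given separately, and why they differ was not tested. On each array between 50.9% and 59.6% of spots stood well above background.

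Markers of dendritic cells were present: 9 of 9, among them Itgax and the class II gene H2-Ab1, were well above background on every array at 0 h and at 24 h, and 7 of 9 on every array at 6 h and at 12 h, where Cd209a was so on no array. Their summed level, in units of the 75th percentile, was 613 to 636 at 0 h, 608 to 680 at 6 h, 650 to 716 at 12 h and 612 to 628 at 24 h. Macrophage markers moved with the cytokines in the scanner values. Of 11, 9 had a probe and all 9 were above background at every time, with sums of 366 to 376 at 0 h, 429 to 502 at 6 h, 597 to 665 at 12 h and 370 to 385 at 24 h, and their part in the results was not tested. Neutrophil and precursor markers, with all 7 probes of 8 markers above background at every time, summed to 171 to 175 at 0 h, 158 to 179 at 6 h, 192 to 216 at 12 h and 171 to 178 at 24 h. Of 6 natural killer cell markers, 1 was above background on every array at 0 h, 0 at 6 h, 0 at 12 h and 2 at 24 h, while Ncr1, Gzma, Prf1 and Eomes were so on no array at any time. Their sum was 0.15 to 0.19 at 0 h, 0.10 to 0.15 at 6 h, 0.13 to 0.18 at 12 h and 0.18 to 0.19 at 24 h. T-cell markers summed to 1.49 to 1.56 at 0 h, 0.984 to 1.80 at 6 h, 1.04 to 1.16 at 12 h and 1.54 to 1.57 at 24 h, and of 7 with a probe 5 were above background on every array at 0, 6 and 12 h and 6 at 24 h, with Cd3g and Cd28 so on no array at 6 or 12 h. B-cell markers summed to 1.00 to 1.06 at 0 h, 1.09 to 1.24 at 6 h, 1.45 to 1.58 at 12 h and 0.873 to 0.969 at 24 h, with 3 of 6 above background on every array at 0, 6 and 12 h and 4 at 24 h, and the part of these other cells was not tested either.

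Exposure for 6 h and 12 h was compared with 0 h, to ask which polarising cytokines the cells switch on. At 6 h 6 of the 7 genes were called higher in the scanner values, where 10.2% of all genes were, and 5 of 7 in the value table, where 13.2% were. At 12 h all 7 were called higher by the scanner, against 13.7% of all genes, and 4 of 7 by the table, against 15.7%. Il23a, Il10 and Il19 passed the filter on dim probes through their 6 h and 12 h arrays alone. Their scanner calls here, and their part in the F-test below, were therefore favoured in advance and add no support. Il12a, Ebi3 and Il10 were called higher in both sources at both times. No member was called lower, where the scanner called lower 15.9% of all genes at 6 h and 16.9% at 12 h and the value table called lower 11.8%, 12.1% and 13% at 6, 12 and 24 h. Samples at 6 h lay apart from those at 0 h for all 7 genes in both sources, as they did for 75.4% of all genes in the scanner values and 72.3% in the table. At 12 h this held for 7 genes in the scanner values (79.4% of all genes) and for 5 in the table (77.2%), and at 24 h for 3 in the scanner values (44.5%) and for 5 in the table (78.1%). A moderated F-test over the 3 later times with the same thresholds passed 7 of 7 in the scanner values, against 36.1% of all genes, and 5 of 7 in the table, against 36.9%, without Il27 and Il19. At 24 h against 0 h the scanner values called 0 of 7, against 0.837% of all genes called either way. The value table called 2 of 7 higher, Il12a and Il10, against 13.3% of all genes. In the scanner values 3 of 7, Il23a, Il10 and Il19, had an unadjusted limma p under 0.05 at 24 h against 0 h. None of their arrays at these times was well above background, so no change is read from this count.

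**Figure D1:**
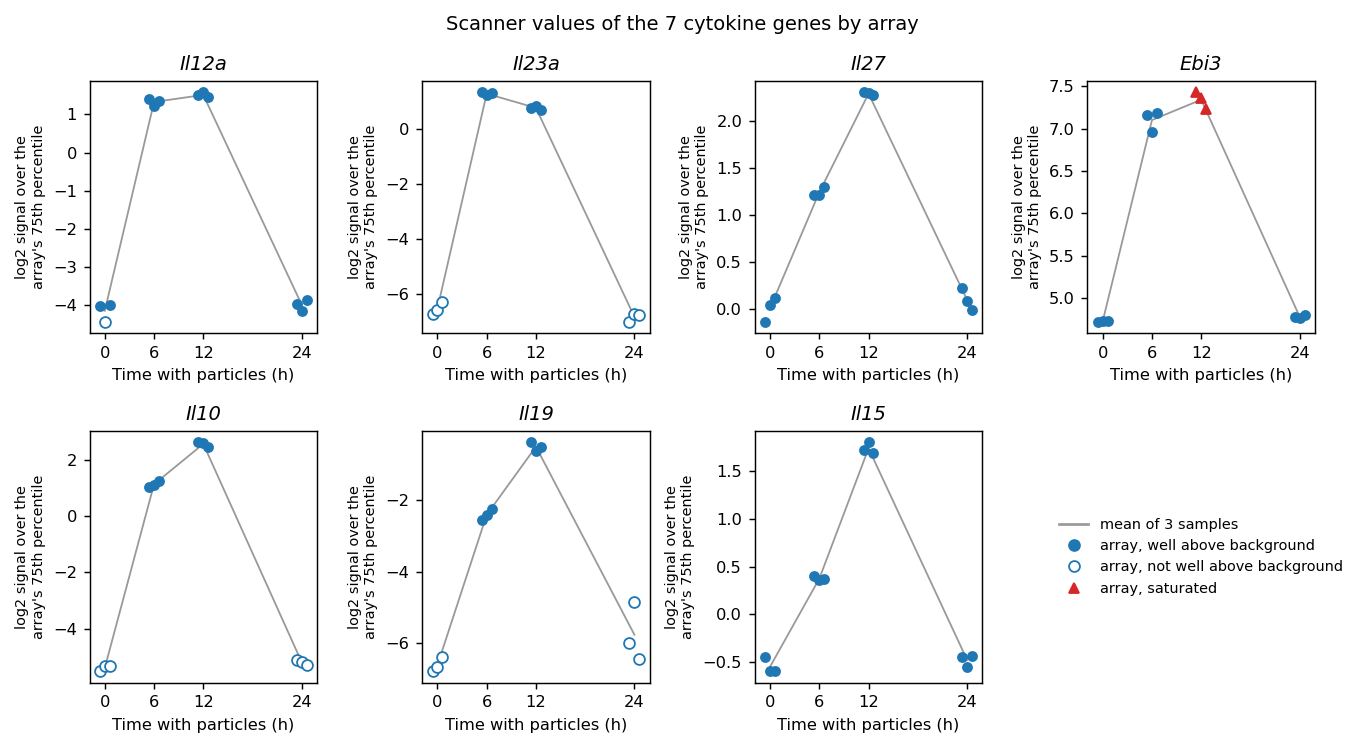
Scanner values of the 7 genes by array. The vertical axes give the log2 signal over the 75th percentile of the array, each with its own range, and the horizontal axes give hours with the particles; points are arrays, open where not well above background and red triangles where saturated, and lines join the means of 3 samples. Every gene stands higher at 6 and 12 h than at 0 and 24 h, and the arrays at 24 h lie close to those at 0 h.

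**Figure D2:**
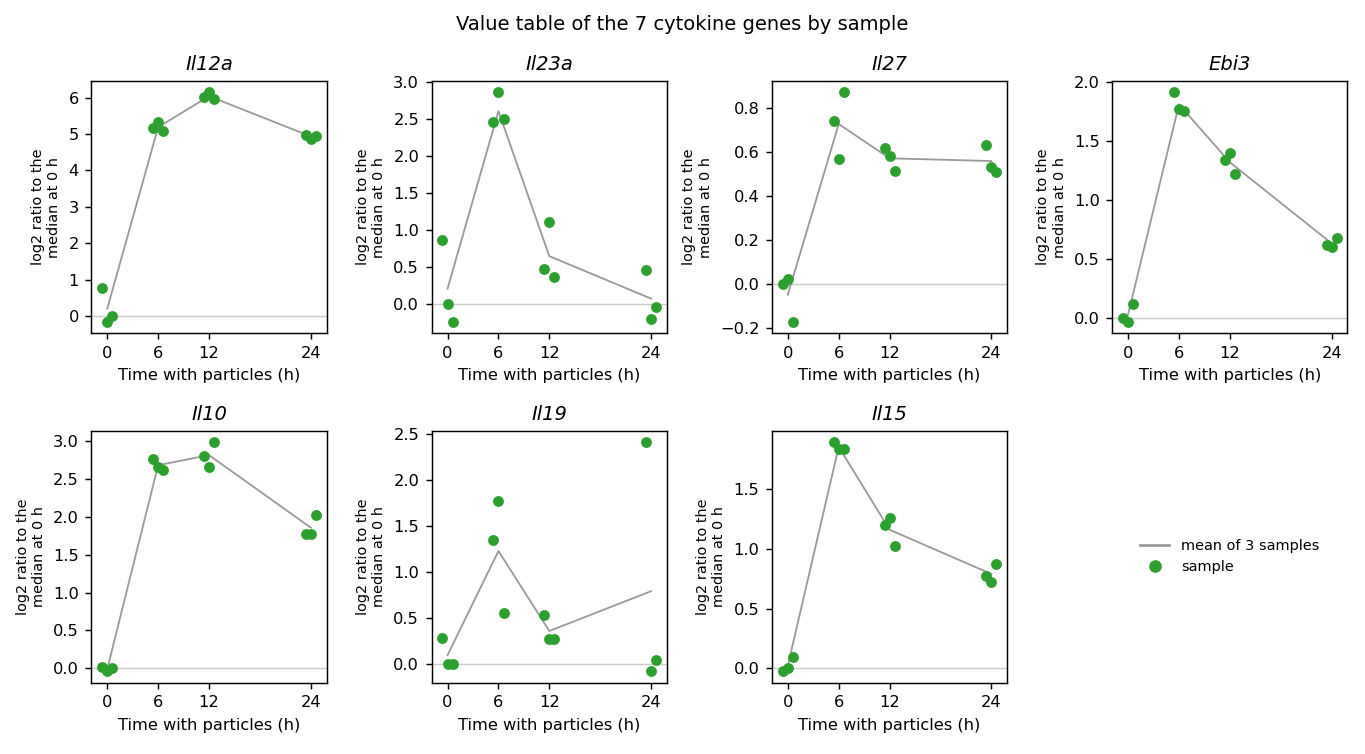
The value table for the same 7 genes. The vertical axes give the log2 ratio to the median at 0 h, each with its own range, the horizontal axes give hours with the particles, points are samples and lines join the means of 3. Il12a and Il10 stay above their levels at 0 h in every column at 24 h, Il23a is high at 6 h, and the samples of Il19 at 24 h lie apart from each other.

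Il12a, the p35 subunit, had the largest change of the 7 genes in the value table at each time. Its scanner values were -4.01, -4.42 and -3.99 at 0 h, 1.40, 1.22 and 1.35 at 6 h, 1.50, 1.57 and 1.45 at 12 h, and -3.96, -4.13 and -3.86 at 24 h. In the value table its ratios were 1.72, 0.903 and 1 at 0 h, 35.9, 40.0 and 33.8 at 6 h, 65.1, 70.5 and 61.9 at 12 h, and 31.4, 29.3 and 31.1 at 24 h. All samples at 6 h and 12 h lay above all samples at 0 h in both sources, and the 24 h samples did so only in the value table. By the scanner Il12a rose 44.1-fold at 6 h against 0 h (5.46 ± 0.117 on the log2 scale, SE, with 3 samples in each group; limma adjusted p = 8.41e-11) and 50.1-fold at 12 h (limma adjusted p = 4.38e-11). Only 2 of the 3 arrays at 0 h were well above background, and with normexp background correction the log2 changes were 3.44 and 3.56. By the table it rose 31.5-fold at 6 h (4.98 ± 0.197, limma adjusted p = 6.24e-09), 56.8-fold at 12 h and 26.4-fold at 24 h (limma adjusted p = 8e-09). The scanner change at 24 h against 0 h was 0.15, with a 95% interval from -0.11 to 0.42 (limma adjusted p = 0.516). At 12 h against 6 h the scanner difference was 0.19 (limma adjusted p = 0.224), and the table gave 1.80-fold (limma adjusted p = 0.00537), under the 2-fold threshold. At 24 h against 12 h Il12a fell in the table by 1.10 on the log2 scale (limma adjusted p = 0.00143), and the call was lost at -0.99, under 2-fold, with each column centred on its median and at -0.62 with quantile normalization (limma adjusted p = 1).

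Il23a, the p19 subunit, was called higher at 6 h and 12 h in the scanner values and at 6 h in the table. Its scanner values were -6.72, -6.58 and -6.30 at 0 h, 1.34, 1.24 and 1.32 at 6 h, 0.77, 0.86 and 0.71 at 12 h, and -7.01, -6.74 and -6.77 at 24 h. The arrays at 0 h and 24 h were not well above background, so the rises are given as lower bounds in the processed signal. A bound sets the mean of the brighter group against, on each array of the dimmer group, the lowest signal of any probe well above background or the probe's own signal, whichever is higher. On that basis Il23a rose at least 55.8-fold at 6 h against 0 h (limma adjusted p = 7.76e-12) and at least 38.9-fold at 12 h (limma adjusted p = 6.34e-12). With normexp background correction its fitted log2 changes, 7.84 and 7.32 in the main setting, were 3.82 and 3.28. The normexp changes of Il23a, Il10 and Il19 are smaller than their bounds, so these bounds are not minimum folds under that correction. At 12 h against 6 h it was lower by a log2 difference of -0.52 (limma adjusted p = 0.00274), with the 3 arrays of 12 h below the 3 of 6 h, which is under 2-fold. Its ratios in the value table were 1.83, 1 and 0.852 at 0 h, 5.49, 7.23 and 5.65 at 6 h, 1.39, 2.16 and 1.29 at 12 h, and 1.38, 0.875 and 0.972 at 24 h. The 6 h samples stood above all others, and those at 12 h and 24 h overlapped with 0 h. Il23a rose 5.24-fold at 6 h in the table (2.39 ± 0.303, limma adjusted p = 4.64e-05), gave a log2 change of 0.44 at 12 h (limma adjusted p = 0.217) and fell by 1.95 on the log2 scale at 12 h against 6 h (limma adjusted p = 0.000485). With quantile normalization of the table the calls were lost, at 1.37 for 6 h (limma adjusted p = 0.326) and -1.62 for 12 h against 6 h (limma adjusted p = 0.612).

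Il27, the p28 subunit, was measurable before exposure and climbed by steps in the scanner values. They were -0.13, 0.05 and 0.12 at 0 h, 1.21, 1.21 and 1.30 at 6 h, 2.30, 2.29 and 2.27 at 12 h, and 0.22, 0.09 and -0.01 at 24 h. The groups at 0, 6 and 12 h did not overlap, and those at 0 h and 24 h did. It rose 2.34-fold at 6 h (1.23 ± 0.074, limma adjusted p = 1.34e-07) and 4.84-fold at 12 h (limma adjusted p = 9.68e-10). At 12 h it stood 2.06-fold above 6 h (limma adjusted p = 1.69e-06), which fell under 2-fold with normexp correction (log2 change 0.97), with quantile normalization (0.94) and with the percentile taken over probes detected on all arrays (0.95). By the table Il27 had ratios of 1, 1.02 and 0.888 at 0 h, 1.67, 1.48 and 1.83 at 6 h, 1.54, 1.49 and 1.43 at 12 h, and 1.55, 1.45 and 1.42 at 24 h. Every later sample lay above every sample at 0 h, with changes of 1.71-fold at 6 h (limma adjusted p = 1.25e-05), 1.54-fold at 12 h and 1.52-fold at 24 h, none of which reached 2-fold. The table's levels at 12 h and 24 h differed by -0.01 on the log2 scale (limma adjusted p = 0.921).

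Ebi3, the partner of p28 in IL-27 and of p35 in IL-35, had scanner values of 4.72, 4.73 and 4.73 at 0 h, 7.16, 6.96 and 7.19 at 6 h, 7.43, 7.36 and 7.24 at 12 h, and 4.78, 4.76 and 4.79 at 24 h. The spot was saturated on all 3 arrays at 12 h, so that rise is a lower bound. The 6 h spots were not flagged as saturated. Their intensities of 54804.8 to 59141.6 overlapped with the 55752.8 to 62517.9 at 12 h, so the 6 h fold lies near the same limit. Ebi3 rose 5.20-fold at 6 h (2.38 ± 0.067, limma adjusted p = 5.02e-10) and at least 6.14-fold at 12 h (limma adjusted p = 1.77e-10). The value table gave ratios of 1, 0.977 and 1.09 at 0 h, 3.77, 3.41 and 3.38 at 6 h, 2.53, 2.64 and 2.34 at 12 h, and 1.53, 1.52 and 1.60 at 24 h. These groups did not overlap and were ordered 0, 24, 12 and 6 h from low to high. In the table Ebi3 rose 3.45-fold at 6 h (1.79 ± 0.067, limma adjusted p = 3.98e-09) and 2.45-fold at 12 h (limma adjusted p = 3.94e-08), and was 1.52-fold higher at 24 h (limma adjusted p = 1.6e-05), under the threshold of 2-fold. With quantile normalization the table's log2 change at 12 h was 0.71, under 2-fold.

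Il10 rose in both sources and by the table remained called at 24 h. Its scanner values, the mean of up to 10 spots per array, were -5.52, -5.32 and -5.34 at 0 h, 1.03, 1.11 and 1.26 at 6 h, 2.63, 2.61 and 2.47 at 12 h, and -5.11, -5.20 and -5.29 at 24 h. The arrays at 0 h and 24 h were not well above background. Il10 rose at least 49.7-fold at 6 h (limma adjusted p = 5.42e-12) and at least 134-fold at 12 h (limma adjusted p = 9.68e-13), and the arrays at 12 h stood 2.70-fold above those at 6 h (log2 change 1.44, limma adjusted p = 3.18e-07). With normexp correction its fitted log2 changes, 6.53 and 7.96 in the main setting, were 3.43 and 4.71. Its ratios by the table were 1.01, 0.973 and 1 at 0 h, 6.80, 6.33 and 6.16 at 6 h, 6.99, 6.30 and 7.93 at 12 h, and 3.42, 3.43 and 4.06 at 24 h. The samples at 6 h and 12 h overlapped, and all of them lay above those at 24 h, which lay above those at 0 h. The rises were 6.46-fold at 6 h (2.69 ± 0.092, limma adjusted p = 2.2e-09), 7.08-fold at 12 h (limma adjusted p = 1.29e-09) and 3.65-fold at 24 h (limma adjusted p = 3.1e-08). At 24 h against 12 h the table's log2 difference was -0.96 (limma adjusted p = 2.75e-05), under 2-fold, and it passed 2-fold at -1.04 without 12 h replicate 2 and likewise without 24 h replicate 3.

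Il19, of the IL-10 family, rose by the scanner alone and varied most between samples in the table. Its scanner values were -6.78, -6.66 and -6.38 at 0 h, -2.56, -2.44 and -2.25 at 6 h, -0.39, -0.64 and -0.52 at 12 h, and -6.00, -4.85 and -6.44 at 24 h. None of the arrays at 0 h and 24 h was well above background, while the groups at 6 h and 12 h were, and did not overlap. Il19 rose at least 4.24-fold at 6 h (limma adjusted p = 1.01e-06) and at least 15.8-fold at 12 h (limma adjusted p = 4.53e-08), and stood 3.73-fold higher at 12 h than at 6 h (limma adjusted p = 0.000838). With normexp correction its fitted log2 changes, 4.19 and 6.09 in the main setting, were 0.90 and 2.23, so that at 6 h it was under 2-fold. The table's ratios for Il19 were 1.22, 1 and 0.999 at 0 h, 2.55, 3.42 and 1.47 at 6 h, 1.45, 1.20 and 1.21 at 12 h, and 5.30, 0.946 and 1.03 at 24 h. The 6 h samples lay above those at 0 h, the 12 h samples overlapped with them, and 1 column at 24 h held the highest ratio of all. No table contrast of Il19 was called: the log2 change at 6 h was 1.13 ± 0.574 (limma adjusted p = 0.102) and at 12 h 0.26 (limma adjusted p = 0.696). With only the 0 h and 6 h columns in the fit the adjusted p at 6 h was 0.0164 by limma.

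Il15 rose in both sources, later in the scanner values and earlier in the table. Its scanner values were -0.45, -0.59 and -0.59 at 0 h, 0.40, 0.35 and 0.37 at 6 h, 1.72, 1.80 and 1.69 at 12 h, and -0.44, -0.55 and -0.43 at 24 h. The groups at 0, 6 and 12 h did not overlap. Il15 was 1.89-fold higher at 6 h (0.92 ± 0.054, limma adjusted p = 1.12e-07), under the 2-fold threshold, and rose 4.86-fold at 12 h (limma adjusted p = 1.06e-10), when it stood 2.57-fold above 6 h (limma adjusted p = 2.72e-08). Its table ratios were 0.983, 1 and 1.07 at 0 h, 3.72, 3.57 and 3.56 at 6 h, 2.29, 2.39 and 2.04 at 12 h, and 1.71, 1.65 and 1.83 at 24 h. The 6 h columns were the highest and the 12 h columns came next, with no overlap between any groups. By the table Il15 rose 3.56-fold at 6 h (1.83 ± 0.068, limma adjusted p = 4.01e-09) and 2.20-fold at 12 h (limma adjusted p = 1.29e-07), and was 1.70-fold higher at 24 h (limma adjusted p = 3.08e-06), under 2-fold. The table's 12 h change was 0.91 with columns centred on their median and 0.77 with quantile normalization, both under 2-fold, and the 24 h change was 1.03, past 2-fold, with the slide as a block.

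**Figure D3:**
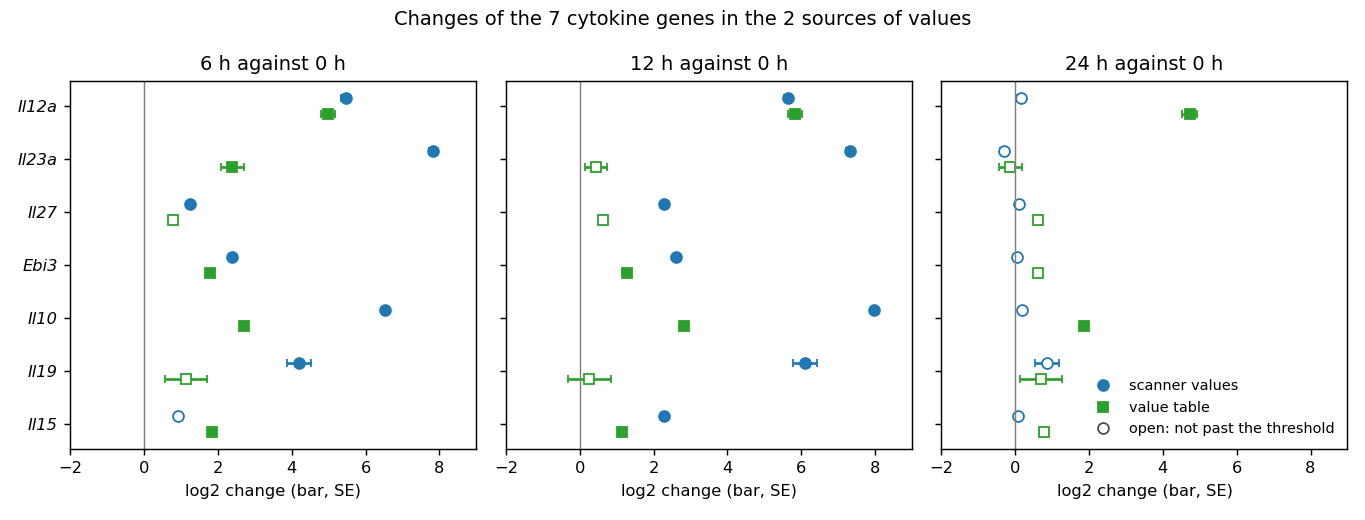
Log2 changes of the 7 genes at 6, 12 and 24 h against 0 h. The horizontal axes give the log2 change with its SE as a bar, which is narrower than the symbol where not seen; blue circles are scanner values, green squares the value table, and open symbols did not pass the threshold. The sources share rises of Il12a, Ebi3 and Il10 at 6 and 12 h, and at 24 h only the table holds called changes, for Il12a at 4.72 and Il10 at 1.87. Fitted scanner changes of Il23a, Il10 and Il19 rest on dim values at 0 h and exceed the bounds given in the text.

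Over the 7 genes the median log2 change in the scanner values was 4.19 at 6 h and 5.65 at 12 h, while the median over all 18403 genes was -0.06 and -0.03. With Il23a, Il10 and Il19, and at 12 h Ebi3, at their bounds the medians were 2.38 and 3.98. By the table the median of the 7 was 1.83 at 6 h, 1.14 at 12 h and 0.69 at 24 h, and that of all genes 0.14, 0.22 and 0.12. Ranked by log2 change over all genes from the highest, Il23a stood 11th and Il10 30th at 6 h in the scanner values, and Il10 stood 13th and Il23a 21st at 12 h. These ranks use fitted changes against 0 h arrays that were not well above background, so the sizes of these changes are not measured. The bounds given above hold for the processed signal alone. By the table Il12a ranked 79th at 6 h, 47th at 12 h and 85th at 24 h.

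The members differed in their course between 6 h and 12 h, and the 2 sources gave different calls. In the scanner values Il27, Il10, Il19 and Il15 were called higher at 12 h than at 6 h, 4 of 7 against 4.89% of all genes, and none was called lower, against 2.1%. The table called Il23a lower at 12 h, 1 of 7 against 2.73% of all genes, and called none higher, against 3.07%. Il15 moved oppositely in the 2 sources, at 1.36 in the scanner values and -0.69 in the table (limma adjusted p = 2.31e-05). Signs also differed for Il19, at 1.90 and -0.87, Il27, at 1.04 and -0.16, and Ebi3, at 0.24 and -0.49. The table values of Il19 and Il27 had limma adjusted p of 0.243 and 0.15, and that of Ebi3 0.000193. The scanner value of Ebi3 rests on saturated spots at 12 h. Il12a, Il10 and Il23a kept their sign in both sources. At 24 h against 12 h all 7 were called lower in the scanner values, against 12.9% of all genes, from 4.55-fold for Il27 to at least 193-fold for Il10. For Il23a, Il10 and Il19 this fall was favoured in advance too, since the filter passed them through their 6 h and 12 h arrays alone. Il12a alone was called lower in the table, against 3.17% of all genes. The scanner intervals at 24 h against 0 h for the 4 genes measured at both times ran from -0.11 to 0.42 for Il12a, -0.08 to 0.25 for Il27, -0.10 to 0.20 for Ebi3 and -0.05 to 0.19 for Il15.

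The arrays lay on 3 slides, each holding arrays of 2 neighbouring times. The values with slides that follow are fitted changes, and those that rest on dim arrays of Il23a, Il10 or Il19 at 0 h or 24 h, or on the saturated Ebi3 spot at 12 h, are not measured sizes. The slide of the 0 h arrays also held 6 h replicate 1, and within it the scanner changes at 6 h were 5.54 for Il12a, 7.88 for Il23a, 1.20 for Il27, 2.44 for Ebi3, 6.43 for Il10, 4.04 for Il19 and 0.95 for Il15, the same as with the slide as a block. Within the slide shared by 6 h and 12 h, the 12 h over 6 h changes were 0.25 for Il12a, -0.46 for Il23a, 1.04 for Il27, 0.32 for Ebi3, 1.43 for Il10, 1.83 for Il19 and 1.40 for Il15. Within the slide shared by 12 h and 24 h, the 24 h over 12 h changes were -5.43 for Il12a, -7.55 for Il23a, -2.17 for Il27, -2.46 for Ebi3, -7.67 for Il10, -5.24 for Il19 and -2.16 for Il15. That slide held only replicate 3 of the 12 h arrays, so these changes rest on a single array of 12 h. At 12 h against 0 h, which share no slide, the changes with the slide as a block were 5.79 for Il12a, 2.24 for Il27 and 2.34 for Il15, which were measured at both times, and the fitted changes of the other 4 lay between 2.76 for Ebi3 and 7.86 for Il10.

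Genes around the cytokines in the pathway were counted from 5 lists, and the counts of each list stand beside these shares of all genes. The scanner called 10.2% of all genes higher and 15.9% lower at 6 h, and 13.7% and 16.9% at 12 h. The table called 13.2% higher and 11.8% lower at 6 h, 15.7% and 12.1% at 12 h, and 13.3% and 13% at 24 h. Some list genes, at least Il33, Tslp, Rel and Il23r, were not well above background at 0 h or 24 h. The filter passed them through their 6 h or 12 h arrays alone. Their scanner calls in the counts below were therefore favoured in advance and add no support. Of 12 tested receptor chains of the members, 5 were called higher and 2 lower at 6 h in the scanner values, and 6 and 2 at 12 h. The 5 at 6 h include Il23r, which was not well above background at either time. The table's counts were 5 and 0 at 6 h, 8 and 1 at 12 h, and 7 and 1 at 24 h. Il15ra, which presents IL-15 to neighbouring cells, rose by a log2 change of 2.17 at 6 h and 3.30 at 12 h in the scanner values, and had 0.84, 1.03 and 0.53 at 6, 12 and 24 h in the table, where it was called at 12 h. Il20rb, a receptor chain for IL-19, rose by 2.40 and 2.14 in the scanner values and by 2.01, 2.15 and 1.63 in the table. Il12rb1, the chain shared by the IL-12 and IL-23 receptors, rose by 2.15 at 6 h and had 0.54 at 12 h in the scanner values, against 2.03, 1.73 and 1.57 in the table, all 3 of them called.

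The specific chains of these receptors gave mixed values. Il12rb2, the IL-12 specific chain, rose by 1.00 and 1.75 at 6 h and 12 h in the scanner values, while the table gave 0.07 at 6 h, -1.24 at 12 h and -1.77 at 24 h, the last 2 called lower. Il23r, the IL-23 specific chain, rose at least 6.25-fold at 12 h in the scanner values, and had 0.66, 2.36 and 3.59 in the table, the last 2 called. Il27ra, the IL-27 receptor chain, fell in the scanner values, at -1.52 and -2.23, with -0.46, -0.57 and -0.67 in the table, none called. Il6st, its signalling partner, fell in the scanner values, at -1.10 and -1.58, but had 0.92, 0.33 and -0.15 in the table, none called. Il10rb, the shared chain of the IL-10 receptor, rose in the table by 1.45, 1.61 and 1.63 and in the scanner values by 1.02 at 12 h. Il2rg, the common gamma chain through which IL-15 signals, rose in the table by 1.79, 1.57 and 1.74 and had 0.71 and 0.94 in the scanner values, neither called.

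Of 16 tested ligands of the same and neighbouring families, 11 were called higher and 1 lower at 6 h and again at 12 h in the scanner values. The table gave 5 and 0 at 6 h, 4 and 2 at 12 h, and 4 and 1 at 24 h. Il6, which drives acute inflammation, rose by 9.35 and 9.51 in the scanner values and by 6.71, 6.25 and 4.47 in the table. Il1b, saturated at 6 h and 12 h, rose at least 16.9-fold and 18.9-fold at these times in the scanner values. In the table it rose by 4.78, 4.19 and 2.69 on the log2 scale. Ifnb1, interferon beta, rose by 3.06 and 2.17 in the scanner values and by 5.23, 4.35 and 3.23 in the table. Il33, an alarm cytokine, and Il22, an IL-10 family member, took opposite signs in the 2 sources. By the scanner Il33 rose at least 26.5-fold at 6 h and 139-fold at 12 h, with -1.77, -1.36 and -2.26 in the table, none called. Its table value at 12 h turned to 1.16, called higher, without 0 h replicate 2. Il22 rose by 2.80 and 3.61 by the scanner, with -2.19, -2.58 and -2.73 in the table, the last 2 called lower. Tslp, an epithelial-type cytokine that acts on dendritic cells, rose at least 12.7-fold at 6 h and 23.1-fold at 12 h in the scanner values and had 2.53, 0.50 and 0.01 in the table, called at 6 h.

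Of 16 Janus kinases, STAT factors, SOCS proteins and Bcl3, 9 were called higher and 0 lower at 6 h and 12 and 0 at 12 h in the scanner values. By the table the counts were 4 higher and 1 lower at 6 h, 5 and 2 at 12 h, and 3 and 3 at 24 h. Those at 24 h lay near the shares of all genes. Socs3, a brake on signals through gp130, rose by 5.98 at 6 h and at least 72.1-fold at 12 h by the scanner, and by 1.83 and 1.64 in the table with 0.73 at 24 h. Cish and Socs1, other brakes on cytokine receptors, differed in sign between the sources. Cish rose by 3.98 and 3.17 by the scanner and fell in the table, at -2.75, -4.58 and -5.90. Socs1 rose by 3.14 and 4.03 by the scanner and had -0.95, -0.59 and -1.49 in the table, called lower at 24 h. Stat4, which carries IL-12 signals, had 0.90 at 6 h and rose by 2.93 at 12 h in the scanner values, and had 0.74 at 6 h with rises of 1.93 and 2.89 at 12 h and 24 h in the table. Socs2 rose by 1.13 and 1.02 by the scanner and had -0.92, -1.06 and -1.68 in the table, the last 2 called lower. Bcl3, a nuclear IκB protein, rose by 1.87 and 2.70 by the scanner and by 2.62, 2.37 and 1.32 in the table.

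Of 28 transcription factors known to act on the members' genes, 13 were called higher and 2 lower at 6 h and 16 and 3 at 12 h in the scanner values. The table gave 15 and 2 at 6 h, 13 and 2 at 12 h, and 11 and 2 at 24 h. Rel, the c-Rel subunit of NF-κB, rose at least 3.40-fold at 6 h and 3.67-fold at 12 h in the scanner values and by 3.94, 2.72 and 1.76 on the log2 scale in the table. Nfkb2 rose by 2.33 and 2.68 by the scanner and by 2.83, 2.75 and 1.91 in the table. Relb rose by 1.11 and 1.62 by the scanner and by 3.12, 3.07 and 2.41 in the table, and the stress-response factor Atf3 by 1.08 and 1.02 by the scanner and 3.18, 3.13 and 2.96 in the table. Batf, an AP-1 family factor, rose by 3.21 and 4.02 by the scanner and by 1.82 and 1.69 in the table, with 0.66 at 24 h. Irf7, an interferon regulatory factor, rose by 1.92 and 4.51 by the scanner and by 2.19 and 1.80 in the table, with -0.08 at 24 h. Maf, known to act on Il10, had 0.78 at 6 h and rose by 2.38 at 12 h by the scanner, and rose by 1.32, 1.47 and 2.14 in the table. Irf4, another interferon regulatory factor, had 0.84 at 6 h and rose by 1.79 at 12 h by the scanner, and fell in the table, at -2.09, -2.38 and -3.09. Ahr, the aryl hydrocarbon receptor, rose by 2.84 and 1.83 by the scanner and had 0.72, 0.63 and 0.25 in the table, none called. Fos fell by the scanner, at -1.96 and -1.14, and had -1.46, -0.91 and -0.34 in the table, called lower at 6 h. Egr2 had 0.50 at 6 h and was called lower at 12 h by the scanner, at -1.41, and had -0.74, -1.05 and -1.21 in the table, the last 2 called lower.

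Of 13 tested membrane ligands that shape T-cell subsets, 9 were called higher and 2 lower at 6 h and 11 and 2 at 12 h in the scanner values. The table gave 8 and 1 at 6 h, 7 and 0 at 12 h, and 2 and 1 at 24 h, the last near the shares of all genes. The Notch ligand Dll4 rose by 3.25 and 4.22 by the scanner and by 1.65 and 2.61 in the table, with 0.53 at 24 h. Jag1, a further Notch ligand, rose by 2.56 and 2.75 by the scanner and by 6.51, 6.68 and 5.92 in the table. Cd80, a costimulator, rose by 2.86 and 3.64 by the scanner and had -0.02, -0.48 and -0.89 in the table, none called. Tnfsf9, the ligand of 4-1BB, rose by 3.25 and 4.03 by the scanner and by 1.36 in the table at 6 h, with 0.69 at 12 h and -0.45 at 24 h. Cd70 fell by the scanner, at -1.11 and -1.04, with 0.17, -0.01 and -0.57 in the table, none called. Cd274, which encodes the inhibitory ligand PD-L1, rose by 2.41 and 2.76 by the scanner and by 2.62, 2.57 and 2.16 in the table. Icosl, the ICOS ligand, had 0.75 at 6 h and rose by 1.12 at 12 h by the scanner, and had 0.70, 0.16 and -1.41 in the table, called lower at 24 h. Jag2 was called lower by the scanner but not well above background after exposure, a fall of at least 1.45-fold at 6 h and 1.76-fold at 12 h, and had -1.72, -1.25 and -1.17 in the table, called lower at 6 h. In the scanner values no gene of the 5 lists was called at 24 h against 0 h, where 0.837% of all genes were called either way. The absence of list calls thus lies near the share of all genes.

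**Figure D4:**
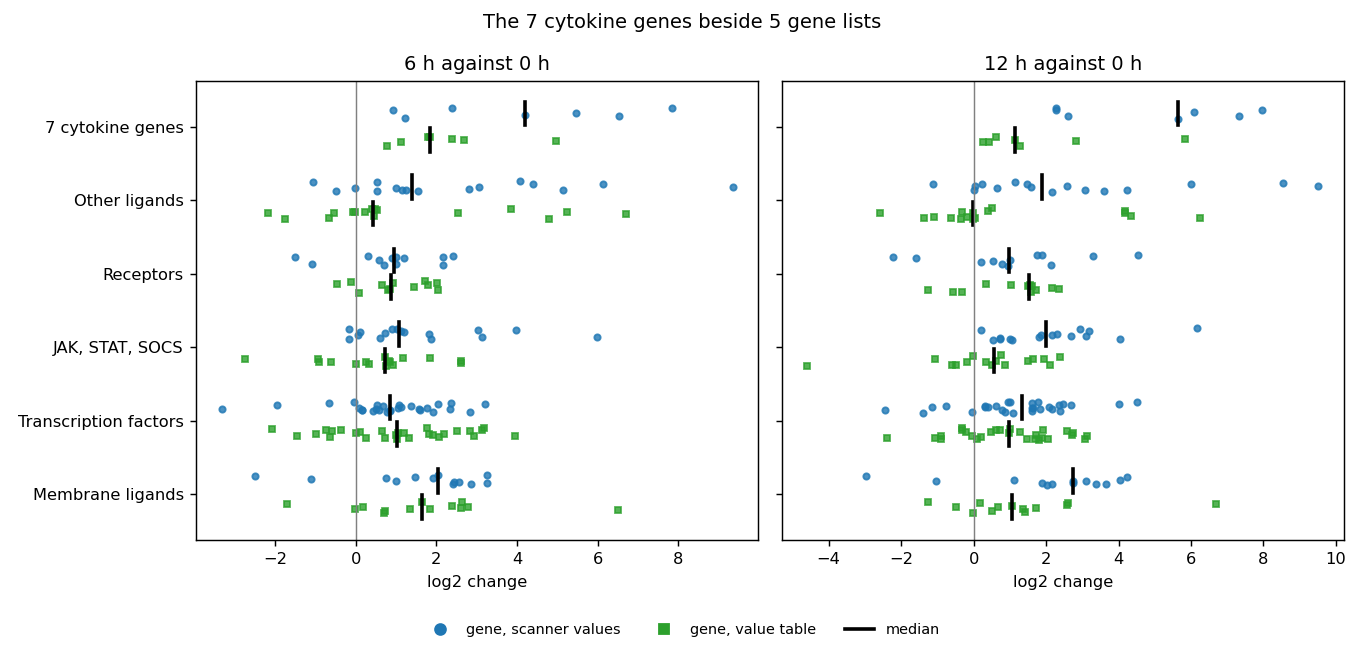
Log2 changes at 6 h and 12 h against 0 h of the 7 genes and of the tested genes of 5 lists. The horizontal axes give the log2 change; each blue circle is a gene in the scanner values, each green square a gene in the value table, and black bars are medians. The medians of the 7 genes are 4.19 and 5.65 in the scanner values and 1.83 and 1.14 in the value table.

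Genes whose course was most like that of each member were taken by Pearson's r of log2 scanner values over the 12 arrays, among 11373 named genes, with r over the 12 columns of the table beside it. Nearest to Il12a were Pla2g4a, Ccl3 and Il1b, with r of 0.999 for each in the scanner values and 0.869, 0.884 and 0.925 in the table. Nearest to Il10 were Tnfaip3, Tnfrsf1b and Gfi1, with 0.985, 0.994 and 0.540 in the table. Nearest to Il15 were Oasl2, Ifi47 and Ifit2, with 0.778, 0.631 and 0.954 in the table. The companions of Il27 were Gbp6, Ppm1l and Pgap2, with 0.911, 0.898 and 0.885 in the table, and those of Ebi3 were Hcar2, Nus1 and Ciapin1, with 0.742, 0.743 and 0.970. For Il23a the nearest were Lox, Cxcl1 and P2ry2, with 0.057, 0.480 and 0.367 in the table, and for Il19 Serping1, Pcbp4 and Map4k4, with 0.516, -0.187 and 0.326. The scanner r of Il23a, Il10 and Il19 includes their arrays at 0 h and 24 h, which were not well above background. Such high r is common here, since all genes share the 4 groups: between 6.75% of named genes for Il15 and 14% for Ebi3 had r over 0.95 in the scanner values.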

How the data were processed

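RNA of 12 samples, 3 at each of 4 times, was measured on Agilent 1-colour mouse arrays. Per the file headers the authors' scanner files came from Agilent Feature Extraction 9.1.3.1 and hold linear intensity, with a processed signal that is background-subtracted. The authors also deposited a value table whose ratio is linear and relative to the median of the 0 h values, with 0.01 as its lowest value. How its columns were scaled was not stated in the material used here. The log2 of both was taken here and is not a deposited unit. No genome build is named there either, and the upstream sequences come from RefSeq tables of GRCm38.p6.

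Of the 41174 probes in both sources, 23492 were kept, those well above background on every array of at least 1 group, after 732 outlier spots were left out. The brightest kept probe stood for its gene. The test was limma 3.58.1 under R 4.3.3 (package data.table, version 1.17.8), in 1 fit per source of all 12 samples with 8 residual degrees of freedom, and two-sided p-values were adjusted by Benjamini-Hochberg over 18403 genes. The procedure was tested on simulated data. The number of arrays limits the precision. The 4 groups are those of the labels. Genes named are the 7 cytokines, from each list at most 3 called genes that rose most and 3 that fell most by time, and for each cytokine the 3 most correlated genes. A few list genes that this rule names are not reported here. The members and lists were chosen with earlier results of these data known. The columns of gMeanSignal were not among the files used, so normexp correction (offset 50) used the median signals. Replicate numbers were not taken to pair samples: deviations from group means of same-numbered samples correlated at -0.05 to 0.16 in the scanner values and -0.08 to 0.23 in the table, and no comparison had every pair over 0.1. Alternatives were background correction, normalization, filter, probe choice, slide, replicate block, samples in the fit, fold threshold and leaving out each replicate.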

Additional observations from a re-analysis of the deposited data

How the results depend on the processing

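Member counts called stayed within 1.5 times of the main count in every setting tried, except those given below. Single calls moved within that limit. Among them, normexp correction lost Il19 at 6 h and Il27 at 12 h against 6 h in the scanner values. In the table, quantile normalization lost Il23a at 6 h, centring on the median lost Il15 at 12 h, and the slide block added Il15 at 24 h. With probes well above background on all arrays only, 3 members could be fitted (Il27, Ebi3 and Il15), and the scanner counts were 2 at 6 h and 3 at 12 h against 0 h, 2 at 12 h against 6 h and 3 at 24 h against 12 h, which follows from the fewer members fitted. In the value table with no fold threshold the counts were 5 at 24 h against 0 h, 4 at 12 h against 6 h and 4 at 24 h against 12 h. With the slide as a block the table called 2 at 24 h against 12 h. With columns centred on their median it called 0 there, and with quantile normalization 2 at 12 h against 0 h, 0 at 12 h against 6 h and 0 at 24 h against 12 h, and the cause was not tested. Leaving out each replicate gave 1 to 2 at 24 h against 12 h in the table, 2 without 12 h replicate 2 and without 24 h replicate 3, and the main counts in the other comparisons. With the replicate block the Il12a change at 6 h in the scanner values was 5.46 (limma adjusted p = 4.7e-09), and the block changed no member count. Of the members' own values, none turned sign past the threshold. Il33, not a member, ranged at 12 h in the table from -2.66 to 1.16 as each replicate was left out, against -1.36 with all samples, and was called higher without 0 h replicate 2 (limma adjusted p = 0.00207). Dim values limit the fold changes of Il23a, Il10 and Il19.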
